A study of Mus musculus with 8 samples.

Results

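The data described here are those of the proteasome genes in a ribosome profiling study of mouse dendritic cells. Members were taken by symbol: a gene belonged if its symbol began with Psm, a letter from a to g and a digit and stood in both deposited tables, with the immunoproteasome genes Psmb8, Psmb9 and Psmb10 and pseudogenes left out. This gave 46 of the 11743 genes that both tables hold. Of these, 45 were among the 10321 genes that passed the filter on low values. The filter asked for a mean of at least 1 RPKM in input and likewise in RPF. RPKM is reads divided by a length and by library size. In replicate 2 the values mostly matched coding lengths for RPF and exon lengths for input. The member that failed was Psma8, an alpha subunit known from testis. Psmb11, known from thymus, stood in the table of replicate 1 only and was not counted. Psmc3ip shares the letters of the rule but encodes a protein of meiotic recombination and not a subunit of the particle.

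The study profiled bone marrow-derived dendritic cells of C57BL/6 mice aged 6 weeks, grown with GM-CSF and IL-4 and matured with lipopolysaccharide (LPS, 100 ng/ml for 24 h), which both genotypes received. The libraries labelled KO (genotype Mettl3-/-) came from mice carrying floxed Mettl3 alleles and a Cre driven by the CD11c promoter, which removes exons 2 to 4 of Mettl3, the catalytic subunit of the mRNA N6-methyladenosine methyltransferase, in CD11c-positive cells. Those labelled WT (genotype wild type) came from littermates, and the paper equates WT dendritic cells with Mettl3 fl/fl cells, which carry the floxed alleles as well. From each lysate, ribosome-protected fragments (RPF, the mRNA covered by a ribosome) and the polyadenylated input mRNA were sequenced, which gave 8 libraries, 2 for each of KO RPF, KO input, WT RPF and WT input. The comparison asks whether mRNA abundance, ribosome occupancy, or occupancy per mRNA (RPF/input) of the proteasome genes differed between KO and WT.

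The proteasome degrades proteins tagged with ubiquitin. Its barrel-shaped core, the 20S particle, is built of alpha rings that gate the entrance and beta rings that hold the proteolytic sites. The 19S cap binds substrates at the ends of the barrel: a ring of ATPases (the Psmc genes) and scaffold subunits form its base, which unfolds substrates, and a lid removes the ubiquitin. Chaperones assemble the particle, alternative activators encoded by the Psme genes can take the place of the cap, and the peptides that proteasomes release are the main source of antigen that dendritic cells present on MHC class I. The 46 genes comprised 8 alpha and 7 beta genes of the core, 6 ATPases, 3 other base subunits and 8 lid subunits of the cap, 7 assembly chaperones, 5 activators, the regulator Psmf1 and Psmc3ip.

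Proteasome genes are known to share control by the transcription factor Nfe2l1 through copies of the antioxidant response element, so the promoters were searched for TGACNNNGC, the core of that element, on both strands and with no other motif. The search covered 250 bases before to 50 bases after the start of each gene in the promoter table of RefSeq (GRCm38.p6). Of 38 members matched to that table, 6 (15.8%) held the motif, against 14% of all 27025 genes in it. The 6 windows, 5′ to 3′ on the strand of the gene with the motif in capitals, are shown because they are the only promoter letters of the members that matched:
Psmb5 (20S beta, chr14:54618024-54618052, minus strand): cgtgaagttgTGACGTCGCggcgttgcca
Psmb6 (20S beta, chr11:70525338-70525366, plus strand): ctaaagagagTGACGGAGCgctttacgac
Psmc6 (19S ATPase, chr14:45329587-45329615, plus strand): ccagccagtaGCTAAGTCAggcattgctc
Psmd12 (19S lid, chr11:107479278-107479299, plus strand): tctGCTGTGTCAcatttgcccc
Psmd9 (assembly chaperone, chr5:123228149-123228177, plus strand): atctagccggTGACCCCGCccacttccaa
Psme4 (activator, chr11:30771758-30771786, plus strand): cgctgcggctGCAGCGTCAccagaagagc
The share among members was near the background share, and the 6 genes came from 5 different subgroups. A match describes letters in a window and is not a binding site.

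Mettl3 itself checks the labels. Its input was 6.27 RPKM in KO and 6.97 RPKM in WT of replicate 1, and 11.9 RPKM in KO and 10.1 RPKM in WT of replicate 2, so that whole-gene input did not separate the genotypes. Its RPF was 15.3 RPKM in KO and 34.0 RPKM in WT of replicate 1, and 5.88 RPKM in KO and 9.63 RPKM in WT of replicate 2. Relative to all genes the RPF differences were −0.67 and −0.64 on the log2 scale, but the fitted difference did not pass the test (adjusted p = 0.999, limma). KO and WT therefore name libraries by their labels throughout. Whole reads could be recovered for replicate 2 only, where the libraries held 5276406 (KO RPF), 4835140 (WT RPF), 8794578 (KO input) and 9920474 (WT input) reads; the depth of replicate 1 is unknown. Dendritic cell markers were present in every library, all 8 of the list above 0, with a summed input of 5955 RPKM (KO) and 5094 RPKM (WT) in replicate 1 and of 6221 RPKM (KO) and 6627 RPKM (WT) in replicate 2. Relative to all genes, their RPF/input was lower in KO in both replicates for 4 of 8 and higher for 1 (24.7% of all genes in each case). Markers of other cells were also present. Relative to all genes, all 8 neutrophil markers had lower input in KO in both replicates (23.0% of all genes). Their input sums were 667 in KO and 1061 RPKM in WT, then 1794 in KO and 1988 RPKM in WT. Their RPF went another way: relative to all genes it was higher in KO in both replicates for 5 of 8 and lower for 1 (24.4% of all genes in each case). The RPF sums were 6118 in KO and 6147 RPKM in WT, then 9622 in KO and 8402 RPKM in WT. The 4 tested of 5 mast cell and basophil markers were lower in input in both replicates as well (23.0% of all genes). The sums over all 5 were 5.32 in KO and 12.2 RPKM in WT, then 25.2 in KO and 52.8 RPKM in WT. Of 5 T and NK cell markers, 3 had higher input in KO in both replicates (23.1% of all genes) and 1 lower (23.0% of all genes). Their sums were 7.18 in KO and 5.10 RPKM in WT, then 16.0 in KO and 9.31 RPKM in WT. The input sums of 6 macrophage markers went opposite ways (862 in KO and 1189 RPKM in WT, then 1308 in KO and 1052 RPKM in WT). Relative to all genes, their RPF/input was lower in KO in both replicates for 5 of 6 (24.7% of all genes). The part of these other cells in the results below was not tested. In bulk libraries fewer cells of a type and less RNA per cell cannot be told apart.

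Proteasome mRNAs were abundant in these cells, and the subunits of the core were more abundant per length than those of the cap. The median input of the 45 tested members lay near the 87th percentile of all tested genes in replicate 1, at 50.3 RPKM in KO and 52.0 RPKM in WT. The 14 tested core genes had median inputs of 104 RPKM in KO and 102 RPKM in WT of replicate 1, and of 96.3 RPKM in KO and 97.8 RPKM in WT of replicate 2. The 17 cap genes lay lower, with medians of 39.0 RPKM in KO and 41.0 RPKM in WT of replicate 1, and of 57.0 RPKM in KO and 54.3 RPKM in WT of replicate 2. The 7 assembly chaperones, which act on the particle without staying in it, had medians below both, between 11.3 and 13.9 RPKM over the 4 input libraries. This order of core, cap and chaperones held in each of the 4 input libraries.

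The activators spanned a wide range. Psme1, a subunit of the interferon-inducible activator, had input of 399 RPKM in KO and 385 RPKM in WT of replicate 1, and of 371 RPKM in KO and 385 RPKM in WT of replicate 2. Its partner Psme2 had 469 RPKM in KO and 364 RPKM in WT of replicate 1, and 183 RPKM in KO and 204 RPKM in WT of replicate 2. Psme2 and Psme2b are near-identical copies between which reads could be split, so the levels of both are uncertain: Psme2b had 75.1 RPKM in KO and 61.7 RPKM in WT of replicate 1, but 324 RPKM in KO and 333 RPKM in WT of replicate 2. Psme4, a large nuclear activator, had the lowest input of the group, at 18.5 RPKM in KO and 17.8 RPKM in WT of replicate 1, and 22.5 RPKM in KO and 19.4 RPKM in WT of replicate 2.

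**Figure D1:**
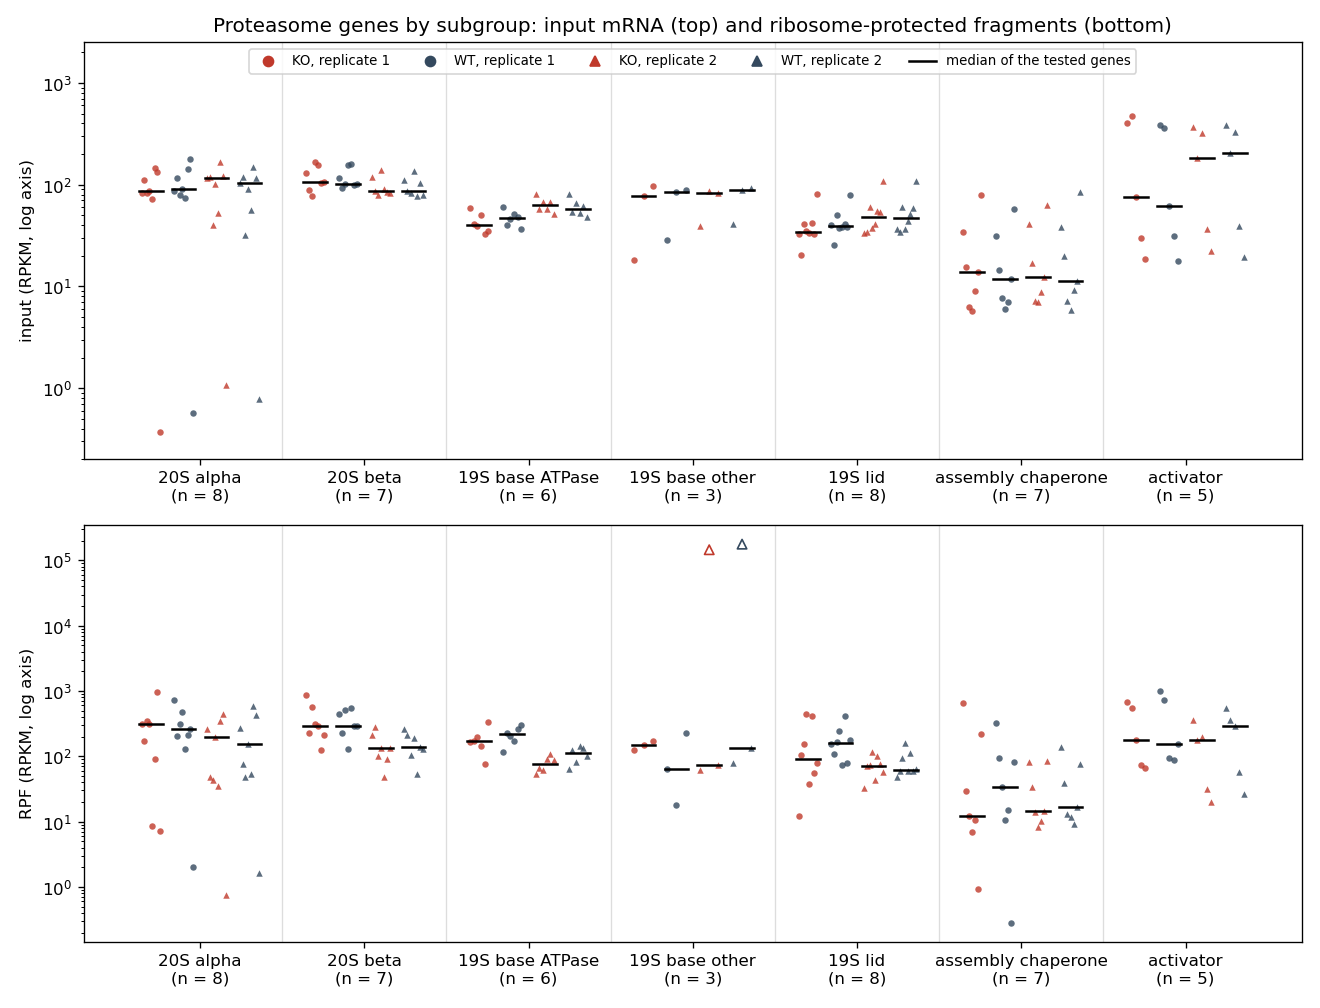
Input (top) and RPF (bottom) of the proteasome genes in RPKM on log axes, by subgroup, with KO in red and WT in blue, replicate 1 as circles and replicate 2 as triangles, 1 point per gene and a bar at the median of the tested genes. The median input of the core genes lies above those of the cap genes and chaperones, and single genes overlap; the lowest alpha gene is Psma8, and the open triangles are the replicate 2 RPF values of Psmd2, which rest on a length of 1 base.

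Subunits of 1 particle are assembled in like numbers, and in replicate 1 their input levels spanned a narrower range than their RPF levels. Without Psma8 and Psmd2, the highest core subunit exceeded the lowest in input by 2.28-fold in KO and 2.43-fold in WT of replicate 1, and by 4.18-fold in KO and 4.59-fold in WT of replicate 2. In RPF the same range was 106-fold in KO and 5.57-fold in WT of replicate 1, and 12.8-fold in KO and 12.0-fold in WT of replicate 2. For the cap, the range in input was 5.12-fold in KO and 3.38-fold in WT of replicate 1, and 3.24-fold in KO and 3.16-fold in WT of replicate 2. Its range in RPF was 35.2-fold in KO and 6.40-fold in WT of replicate 1 (35.2-fold and 22.4-fold with Psmd2, whose values of replicate 1 have no such fault), and 3.54-fold in KO and 3.32-fold in WT of replicate 2. The KO RPF library of replicate 1 had the widest range for both particles. At its low end stood Psma5 among the core genes and Psmd11 among the cap genes, both described below.

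The genes at the ends of each core subgroup show the size of these levels. Psma6 had the highest mean input of the alpha genes, at 146 RPKM in KO and 141 RPKM in WT of replicate 1, and 167 RPKM in KO and 150 RPKM in WT of replicate 2. Psma3 had the lowest of the tested alpha genes, at 82.9 RPKM in KO and 78.7 RPKM in WT of replicate 1, and 39.7 RPKM in KO and 32.3 RPKM in WT of replicate 2. Psma3 differed more between the replicates than between the genotypes. Among the beta genes Psmb4, which has no proteolytic site, had the highest mean input, at 165 RPKM in KO and 154 RPKM in WT of replicate 1, and 138 RPKM in KO and 136 RPKM in WT of replicate 2. Psmb3, likewise without a site, had the lowest, at 76.6 RPKM in KO and 102 RPKM in WT of replicate 1, and 78.6 RPKM in KO and 82.5 RPKM in WT of replicate 2. In RPF, Psmb1 led the beta genes, with 865 RPKM in KO and 449 RPKM in WT of replicate 1, and 212 RPKM in KO and 265 RPKM in WT of replicate 2.

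In the cap, Psmc1 had the highest mean input of the ATPases and the lowest mean RPF of them. Its input was 59.3 RPKM in KO and 60.0 RPKM in WT of replicate 1, and 81.4 RPKM in KO and 81.4 RPKM in WT of replicate 2, while its RPF was 168 RPKM in KO and 118 RPKM in WT of replicate 1, and 53.4 RPKM in KO and 63.0 RPKM in WT of replicate 2. Psmc6 was the reverse, with the lowest mean input (35.4 RPKM in KO and 36.6 RPKM in WT of replicate 1, 51.3 RPKM in KO and 48.5 RPKM in WT of replicate 2) and the highest mean RPF (338 RPKM in KO and 302 RPKM in WT of replicate 1, 86.2 RPKM in KO and 101 RPKM in WT of replicate 2). Psmd4, a ubiquitin receptor of the base, had input of 96.0 RPKM in KO and 87.7 RPKM in WT of replicate 1, and of 82.4 RPKM in KO and 92.6 RPKM in WT of replicate 2. Its RPF was 171 RPKM in KO and 227 RPKM in WT of replicate 1, and 74.2 RPKM in KO and 136 RPKM in WT of replicate 2. Relative to all genes its RPF difference was 0.05 in replicate 1 and −0.84 in replicate 2. In the lid, input was highest for Psmd8, at 81.5 RPKM in KO and 79.2 RPKM in WT of replicate 1, and 109 RPKM in KO and 109 RPKM in WT of replicate 2. It was lowest for the lid scaffold Psmd12, at 20.3 RPKM in KO and 25.6 RPKM in WT of replicate 1, and 34.2 RPKM in KO and 34.3 RPKM in WT of replicate 2.

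RPF ordered the lid in another way. Psmd6 had the highest mean RPF, at 412 RPKM in KO and 415 RPKM in WT of replicate 1, and 101 RPKM in KO and 111 RPKM in WT of replicate 2. Psmd14, the ubiquitin-removing enzyme, had 451 RPKM in KO and 247 RPKM in WT of replicate 1, and 116 RPKM in KO and 159 RPKM in WT of replicate 2. Psmd3 had the lowest mean RPF, at 37.4 RPKM in KO and 72.6 RPKM in WT of replicate 1, and 43.5 RPKM in KO and 58.5 RPKM in WT of replicate 2. Psmd3 was lower in KO within each replicate (−0.49 and −0.40 relative to all genes), while Psmd14 lay on opposite sides (1.32 and −0.42). Among the chaperones, Psmg1 had the lowest mean input, at 5.67 RPKM in KO and 5.98 RPKM in WT of replicate 1, and 7.08 RPKM in KO and 5.89 RPKM in WT of replicate 2. Psmg3 had the lowest mean RPF, at 0.917 RPKM in KO and 0.278 RPKM in WT of replicate 1, and 14.5 RPKM in KO and 17.0 RPKM in WT of replicate 2. Psma8, the member left out by the filter, had input of 0.372 RPKM in KO and 0.573 RPKM in WT of replicate 1, and of 1.07 RPKM in KO and 0.774 RPKM in WT of replicate 2.

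Input mRNA of the proteasome genes differed little between KO and WT. A relative log2 KO/WT difference is given below against the median of all tested genes in that replicate, which was −0.03 and −0.01 for input in replicates 1 and 2. Fitted differences and their tests rest on values without this centring. The median relative difference of the 45 members was −0.01 in replicate 1 and 0.02 in replicate 2. The median size of the difference, without its sign, was 0.106 and 0.0954 for members, against 0.204 and 0.139 for all tested genes. Members were more abundant than most genes, near the 87th percentile of input in the median. This comparison was not matched for abundance. Of the members, 12 were above 0 in both replicates (23.1% of all genes were), 9 were below 0 in both (23.0% of all genes) and 24 lay on opposite sides (53.9% of all genes). No member passed the test (limma with the replicate as a block, Benjamini-Hochberg adjustment over 10321 genes), and none had an unadjusted p under 0.05. Over all genes limma called 0 higher and 0 lower (0.0% each), with 120 higher (1.16%) and 219 lower (2.12%) genes at an unadjusted p under 0.05.

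The member with the largest fitted input difference was Psmd1, a scaffold of the cap base. Its input was 18.4 RPKM in KO and 28.6 RPKM in WT of replicate 1, and 39.6 RPKM in KO and 40.7 RPKM in WT of replicate 2. The replicate 1 libraries stood apart and those of replicate 2 were close, with relative differences of −0.59 and −0.03 and a fitted log2 difference of −0.33 ± 0.20 (SE, 2 pairs). Psmd1 was the only member at least 1.5-fold apart in input in replicate 1 (7.67% of all genes were), and none was in replicate 2 (5.32% of all genes). These shares were not matched for abundance either. Psmg4, an assembly chaperone of the alpha ring, changed sides: its input was 78.3 RPKM in KO and 58.2 RPKM in WT of replicate 1, and 63.0 RPKM in KO and 85.6 RPKM in WT of replicate 2. Psmc5, an ATPase of the base, also lay on opposite sides, at −0.53 in replicate 1 and 0.14 in replicate 2.

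Relative to all genes, the median RPF difference of the proteasome genes had opposite signs in the 2 replicates. The median relative log2 KO/WT difference of the members was 0.20 in replicate 1 and −0.31 in replicate 2. The interquartile range was −0.46 to 0.97 in replicate 1, on both sides of 0, and −0.59 to −0.04 in replicate 2. As deposited, before this centring, the medians of the members were −0.25 and −0.34, both below 0. In replicate 1, 27 of 45 members were above 0, and in replicate 2, 34 of 45 were below 0 (50% of all genes by construction in each case). As many as 22 members were above 0 in replicate 1 and below 0 in replicate 2, against 25.6% of all genes. In all, 28 members lay on opposite sides (51.1% of all genes), 5 were above 0 in both replicates (24.4% of all genes) and 12 below 0 in both (24.4% of all genes). The median of all tested genes before this centring was −0.46 in replicate 1 and −0.03 in replicate 2, and the relative differences below are given against it. Fitted log2 differences, with their SEs and p-values, rest on values that were not centred. The median fitted RPF difference was −0.23 for all tested genes and −0.24 for the members.

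No member passed the test on RPF, where limma called 9 genes higher (0.0872%) and 16 lower (0.155%) over all tested genes. At an unadjusted p under 0.05 there were 3 members: Psma5 and Psmd11, which were lower (4.06% of all genes), and Psmd2, which was higher (1.54% of all genes). With each library centred on its median, limma called 0 genes on RPF over all tested genes, and the smallest adjusted p of a member was 0.994. The spread was larger in replicate 1, in which 25 members were at least 1.5-fold apart (51.9% of all genes), than in replicate 2, in which 12 were (28.2% of all genes). The members ranged from −3.39 to 3.47 in replicate 1 and from −1.73 (Psmc3ip) to 0.42 (Psmb2) in replicate 2. Across the 44 members without Psmd2, the relative RPF differences of the 2 replicates had a Spearman rho of 0.11, against −0.02 over 10098 genes. These genes share the same 4 RPF libraries, and the values are a description.

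**Figure D2:**
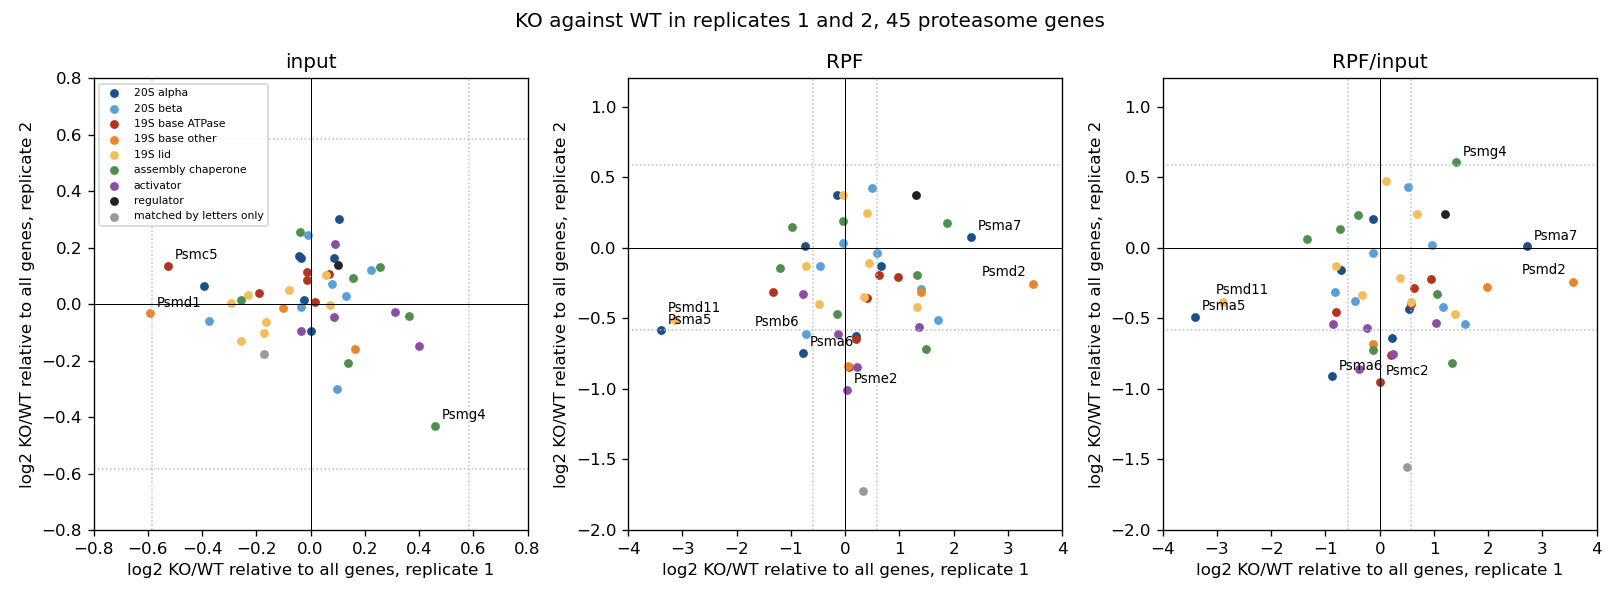
Log2 KO/WT relative to the median of all tested genes in replicate 1 (x axis) and replicate 2 (y axis) for input, RPF and RPF/input, 1 point per tested proteasome gene, coloured by subgroup, with dotted lines at 1.5-fold. Input points crowd around 0, while RPF points spread along the replicate 1 axis and lie mostly below 0 in replicate 2.

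Psma5 and Psma6, of the alpha rings, and Psmb6, which carries the caspase-like site of the beta rings, were the 3 members with RPF at least 1.5-fold lower in KO in both replicates (3.17% of all genes were). None was at least 1.5-fold higher in both (4.04% of all genes). Psma5 (chr3:108256926-108279952 in mm10) had RPF of 8.64 RPKM in KO and 131 RPKM in WT of replicate 1, and of 34.6 RPKM in KO and 53.2 RPKM in WT of replicate 2. KO was the lower one within each replicate. The relative differences were −3.39 and −0.59, and the fitted log2 difference of −2.23 ± 0.61 (SE, 2 pairs) had an adjusted p of 0.0707 by limma, with a range of 0.0576 to 1 over the 14 settings tried. In replicate 2 the difference rested on 132 reads in KO and 186 reads in WT. Its input was 72.3 RPKM in KO and 73.9 RPKM in WT of replicate 1, and 53.0 RPKM in KO and 57.0 RPKM in WT of replicate 2, so the genotypes were close in input.

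Psma6 (chr12:55384222-55418459) had the most even difference of the 3. Its RPF was 89.5 RPKM in KO and 212 RPKM in WT of replicate 1, and 344 RPKM in KO and 589 RPKM in WT of replicate 2. Within each replicate KO was lower, although the level differed more between replicates than between genotypes, so that the KO and WT libraries overlapped. The relative differences were −0.78 and −0.75, and the fitted log2 difference was −1.01 ± 0.60 (SE, 2 pairs; adjusted p = 0.985, limma). Replicate 2 held 1340 reads in KO and 2101 reads in WT, and the 95% exact counting interval of the log2 ratio between these libraries ran from −0.87 to −0.68 (counting error only).

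Psmb6 (chr11:70525324-70527858), whose promoter window is printed above, had RPF of 126 RPKM in KO and 286 RPKM in WT of replicate 1, and of 90.2 RPKM in KO and 141 RPKM in WT of replicate 2. KO was lower within each replicate, with relative differences of −0.72 and −0.61. The fitted log2 difference was −0.91 ± 0.60 (SE, 2 pairs, adjusted p = 0.999 by limma). Its input was 103 RPKM in KO and 98.5 RPKM in WT of replicate 1, and 84.6 RPKM in KO and 105 RPKM in WT of replicate 2. Psmd11 (chr11:80428615-80473248), a scaffold of the lid, came close to the same rule. Its RPF was 12.3 RPKM in KO and 155 RPKM in WT of replicate 1, and 32.5 RPKM in KO and 47.5 RPKM in WT of replicate 2. Within each replicate KO was again the lower one. The fitted log2 difference was −2.07 ± 0.61 (SE, 2 pairs; adjusted p = 0.134, limma; 0.116 to 1 over the 14 settings).

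Several of the largest RPF differences were seen in replicate 1 alone. Psma7, of the alpha rings, had RPF of 971 RPKM in KO and 266 RPKM in WT of replicate 1, but of 450 RPKM in KO and 435 RPKM in WT of replicate 2, with relative differences of 2.32 and 0.08. Psmd2, a scaffold of the cap base, had RPF of 149 RPKM in KO and 18.0 RPKM in WT of replicate 1, a relative difference of 3.47. In replicate 2 its RPF values were computed on a length of 1 base and give no level, but the ratio is not touched by the length: 768 reads in KO and 857 reads in WT, a relative difference of −0.26. The fitted log2 difference of Psmd2 was 1.36 ± 0.65 (SE, 2 pairs; adjusted p = 0.821, limma). Over the 13 settings that tested it, this difference ran from −5.25 to 7.97. Both ends came from fits without the block that left out 1 lysate, which set values on 1 base against those of replicate 1. The range therefore holds that fault and gives no spread of the KO/WT difference. Psmd10, an assembly chaperone known as an oncoprotein of liver, changed sides, with RPF of 656 RPKM in KO and 319 RPKM in WT of replicate 1, and of 82.8 RPKM in KO and 139 RPKM in WT of replicate 2.

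In replicate 2 the reads let counting error be set apart for each gene. The 95% exact counting interval of the RPF ratio per library total lay wholly below 0 for 26 members (22.0% of all genes with reads) and wholly above 0 for 5 (19.2% of all genes). Members have more reads than most genes, and intervals are shorter where reads are many. With at least 100 reads in the pair, a minimum chosen after seeing the data, the counts were 25 of 40 members lower (28.8% of such genes) and 5 higher (24.5% of such genes). These intervals compare 1 library with another and hold no spread between samples.

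By subgroup, the intervals of replicate 2 lay below for all 6 ATPases, all 3 other base subunits and all 5 activators. They lay below for 13 of 17 cap genes, 6 of 14 core genes, 4 of 8 lid subunits and 1 of 7 chaperones. The share was 22.0% of all genes with reads and 28.8% of those with at least 100 reads in the pair. The activators include Psme2 and Psme2b, between which reads could be split. The 5 members with an interval above were Psma4, Psmb2, Psmd7, Psmd12 and Psmf1, of which Psmb2, a beta subunit without a proteolytic site, had 902 reads in KO and 628 reads in WT. Replicate 1 did not share this order: 5 of the 6 ATPases and 12 of the 17 cap genes were above 0 there. In replicate 2, 15 of the 17 cap genes were below 0 (50% of all genes by construction in each case). The median relative RPF difference of the ATPases was 0.29 in replicate 1 and −0.34 in replicate 2, and that of the whole cap was 0.35 and −0.31.

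**Figure D3:**
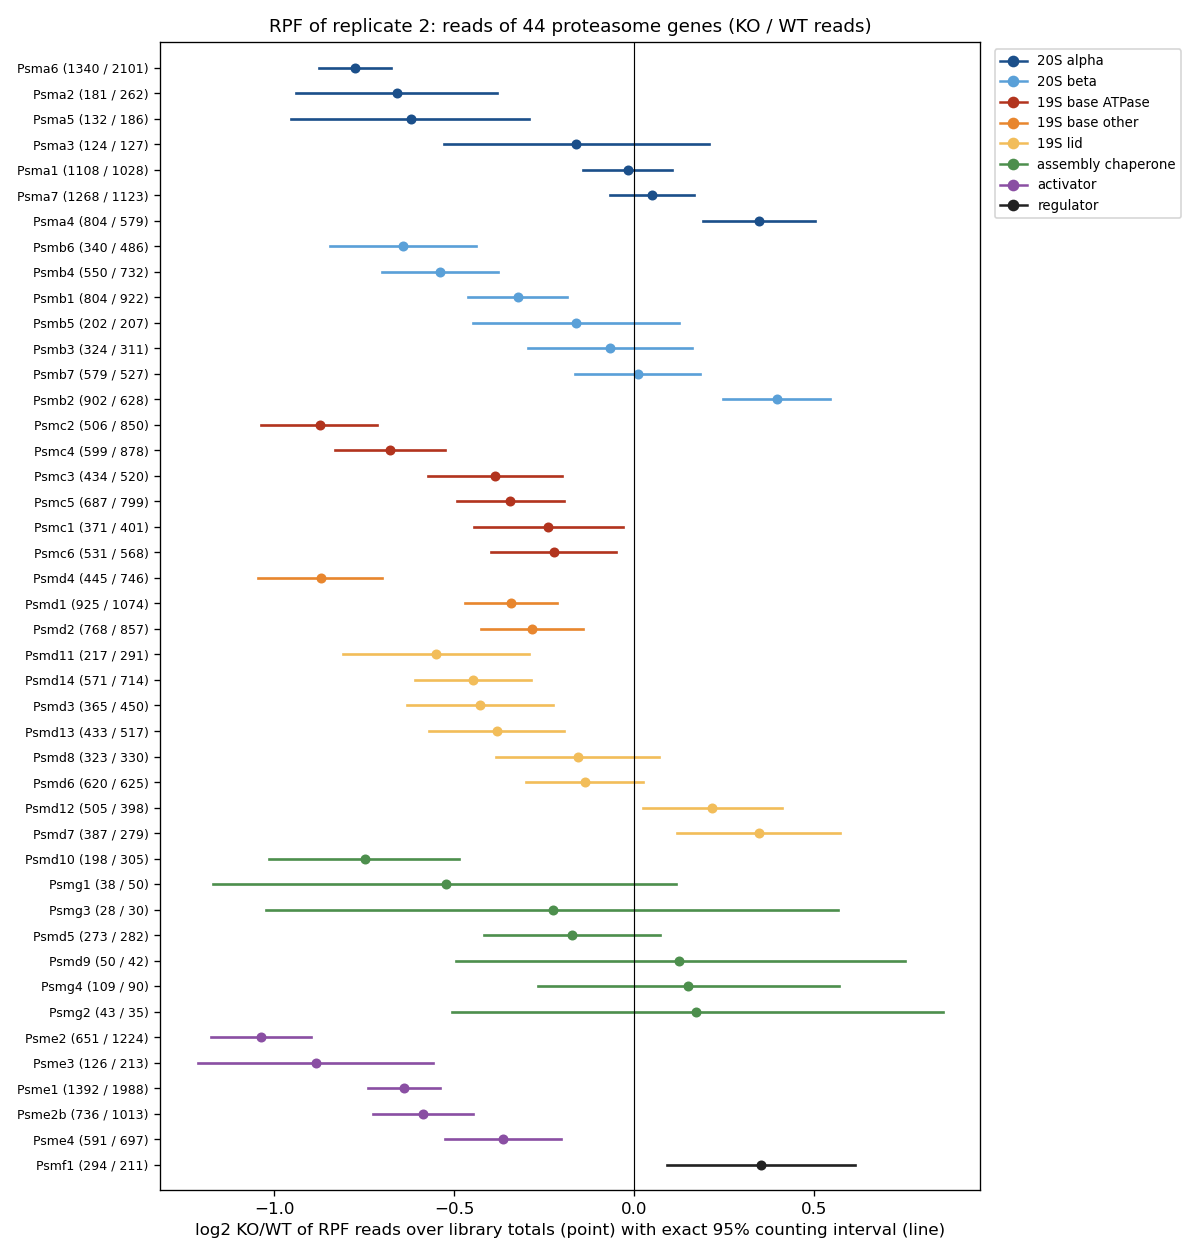
Log2 KO/WT of RPF reads in replicate 2 for 44 proteasome genes, over library totals, with lines for the 95% exact counting interval, coloured by subgroup and with the KO and WT reads beside each name. ATPases, the other base subunits and the activators lie to the left of 0, and the core genes lie on both sides.

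Psmc2, Psmc4 and Psmc5 had the lowest relative RPF differences of the ATPases in replicate 1. Psmc2 had RPF of 173 RPKM in KO and 226 RPKM in WT of replicate 1, and of 67.3 RPKM in KO and 123 RPKM in WT of replicate 2. Psmc4 had 141 RPKM in KO and 170 RPKM in WT of replicate 1, and 90.5 RPKM in KO and 145 RPKM in WT of replicate 2. Relative to all genes these were 0.07 and −0.84 for Psmc2 and 0.19 and −0.65 for Psmc4. Psmc5 was the only ATPase below 0 in both replicates, with 75.9 RPKM in KO and 263 RPKM in WT of replicate 1, and 107 RPKM in KO and 136 RPKM in WT of replicate 2 (−1.33 and −0.31). The other ATPases stood higher in replicate 1, with relative differences of 0.97 and −0.21 for Psmc1, 0.40 and −0.36 for Psmc3, and 0.62 and −0.19 for Psmc6.

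The activators had the lowest median of the subgroups in replicate 2, at −0.61 with a range of −1.01 to −0.33, and a median of 0.03 in replicate 1. Psme1 had RPF of 670 RPKM in KO and 1013 RPKM in WT of replicate 1, and of 353 RPKM in KO and 550 RPKM in WT of replicate 2, with relative differences of −0.14 and −0.61. Psme2 had 546 RPKM in KO and 734 RPKM in WT of replicate 1, and 178 RPKM in KO and 365 RPKM in WT of replicate 2, where replicate 2 held 651 reads in KO and 1224 reads in WT. Its relative differences were 0.03 and −1.01, and neither Psme1 nor Psme2 passed the test (adjusted p = 0.999 for both, limma). Psme4 was below 0 in both replicates (−0.77 and −0.33), and Psme3, a nuclear activator, in replicate 2 alone (0.21 and −0.85). Psme3 had the lowest mean RPF of the group, with 72.6 RPKM in KO and 86.3 RPKM in WT of replicate 1, and 31.3 RPKM in KO and 57.8 RPKM in WT of replicate 2.

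RPF/input, the occupancy per mRNA, was split between the replicates relative to all genes, as RPF was. The medians of the members were 0.22 in replicate 1 and −0.38 in replicate 2, with 7 members above 0 in both (24.7% of all genes), 16 below 0 in both (24.7% of all genes) and 22 on opposite sides (50.6% of all genes). Of those 22, 18 were above 0 in replicate 1 and below it in replicate 2 (25.3% of all genes). No member passed the test, where limma called 7 genes higher (0.0678%) and 10 lower (0.0969%). At an unadjusted p under 0.05, Psma5 and Psmd11 were lower (3.61% of all genes) and Psmd2 was higher (1.94% of all genes). At least 1.5-fold apart were 25 members in replicate 1 (53.7% of all genes) and 11 in replicate 2 (31.9% of all genes). Psma5 had a fitted log2 difference of −2.16 ± 0.67 (SE, 2 pairs; adjusted p = 0.220, limma; 0.141 to 1 over the 14 settings). The median of all tested genes before centring was −0.42 in replicate 1 and −0.02 in replicate 2, and their median fitted difference was −0.20. As deposited, the medians of the members were −0.20 in replicate 1 and −0.40 in replicate 2, both below 0.

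Psma6 was the only member with RPF/input at least 1.5-fold lower in both replicates (−0.88 and −0.91; 3.92% of all genes), and its fitted log2 difference was −1.11 ± 0.65 (SE, 2 pairs; adjusted p = 0.971, limma). Psmg4 was the only one at least 1.5-fold higher in both (1.40 and 0.61; 4.77% of all genes). The RPF of Psmg4 was 219 RPKM in KO and 81.9 RPKM in WT of replicate 1, and 84.0 RPKM in KO and 75.7 RPKM in WT of replicate 2. Both KO libraries were above both WT libraries in RPF. In replicate 2 the relative difference was 0.18 in RPF and −0.43 in input. Its fitted log2 difference was 0.79 ± 0.65 (SE, 2 pairs; adjusted p = 1.000, limma).

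As a level, the median RPF/input of the proteasome genes lay above that of all tested genes in every lysate. The median percentile of the 45 members among all tested genes was 62.0 in KO and 58.2 in WT of replicate 1, and 57.7 in KO and 73.7 in WT of replicate 2. Above the all-gene median were 31 members in KO and 27 in WT of replicate 1, and 30 in KO and 37 in WT of replicate 2. Not every subgroup followed. In KO of replicate 2, 0 of 5 activators were above it (median percentile 43.3). In WT of replicate 1, 3 of 7 alpha genes, 3 of 7 chaperones and 1 of 3 other base subunits were (median percentiles 40.2, 45.8 and 48.6). The highest mean percentiles over the 4 lysates belonged to Psmd14 (91.9), the ubiquitin-removing enzyme of the lid, to Psmd10 (91.6) and to Psmd6 (87.7), a lid subunit. The lowest belonged to Psma5 (28.7), Psmd8 (30.3), a lid subunit, and Psma2 (31.5), of the alpha rings. Psmd14 stayed above the 85th percentile in every lysate, whereas Psma5 was at 1.7 in KO and 40.2 in WT of replicate 1, and at 27.8 in KO and 45.2 in WT of replicate 2. By subgroup, all 6 ATPases, all 3 other base subunits and all 5 activators had a KO/WT difference in RPF/input below 0 in replicate 2 relative to all genes, and 10 of 14 core genes did (50% of all genes by construction). In replicate 1 the medians were 0.39 for the ATPases, 1.98 for the other base subunits and −0.23 for the activators, against −0.43, −0.28 and −0.57 in replicate 2.

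The genes at the ends of each subgroup in mean RPF/input had these values behind them. Psma1, the highest of the alpha genes, had input of 82.1 RPKM in KO and 86.1 RPKM in WT of replicate 1, and of 116 RPKM in KO and 104 RPKM in WT of replicate 2. Its RPF was 313 RPKM in KO and 719 RPKM in WT of replicate 1, and 266 RPKM in KO and 269 RPKM in WT of replicate 2. The genotypes thus differed in RPF of replicate 1 and were close in replicate 2. Among the beta genes Psmb1 was the highest, with input of 131 RPKM in KO and 115 RPKM in WT of replicate 1, and of 120 RPKM in KO and 111 RPKM in WT of replicate 2. Psmb4 was the lowest by mean log2 value, with RPF of 309 RPKM in KO and 129 RPKM in WT of replicate 1, and of 132 RPKM in KO and 191 RPKM in WT of replicate 2, on opposite sides in the replicates. Psmb5, which carries the chymotrypsin-like site, was the lowest by mean percentile. Its input was 156 RPKM in KO and 161 RPKM in WT of replicate 1, and 90.2 RPKM in KO and 76.5 RPKM in WT of replicate 2, and its RPF was 288 RPKM in KO and 543 RPKM in WT of replicate 1, and 48.3 RPKM in KO and 54.1 RPKM in WT of replicate 2.

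In the cap and around it, Psmd8 was the lowest of the lid, with RPF of 78.3 RPKM in KO and 178 RPKM in WT of replicate 1, and of 57.8 RPKM in KO and 64.4 RPKM in WT of replicate 2. Psmd14, the highest of the lid, had input of 35.0 RPKM in KO and 37.9 RPKM in WT of replicate 1, and of 37.7 RPKM in KO and 36.6 RPKM in WT of replicate 2. Input of Psmd14 was thus even over the libraries. Psmd1, the highest of the other base subunits by mean percentile, had RPF of 125 RPKM in KO and 64.5 RPKM in WT of replicate 1, and of 61.3 RPKM in KO and 77.7 RPKM in WT of replicate 2. Psmd10, the highest chaperone, had input of 34.4 RPKM in KO and 31.5 RPKM in WT of replicate 1, and of 40.9 RPKM in KO and 38.5 RPKM in WT of replicate 2. Of the activators, Psme4 was the highest, with RPF of 65.6 RPKM in KO and 154 RPKM in WT of replicate 1, and of 20.3 RPKM in KO and 26.1 RPKM in WT of replicate 2. KO was the lower one within each replicate, but the KO and WT libraries overlapped. Psme2b was the lowest, with RPF of 177 RPKM in KO and 94.0 RPKM in WT of replicate 1, and of 195 RPKM in KO and 292 RPKM in WT of replicate 2.

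RPF/input levels were more alike within a replicate than within a genotype. Across the 44 members without Psmd2, the Spearman rho of log2 RPF/input between KO and WT was 0.63 in replicate 1 and 0.80 in replicate 2 (0.77 and 0.81 over 10098 genes), but between replicates it was 0.36 for KO and 0.28 for WT (0.34 and 0.34 over all genes). Psmf1, an inhibitor of the core in vitro, illustrates it: its percentile was 21 in KO and 7 in WT of replicate 1, and 96 in KO and 96 in WT of replicate 2. Psmg3, an assembly chaperone, had percentiles of 1 in KO and 1 in WT of replicate 1, and of 56 in KO and 71 in WT of replicate 2. RPF levels were closer between replicates, at 0.74 for KO and 0.66 for WT, and input levels closer still, at 0.91 for KO. The points share libraries and gene lengths, and these correlations are a description across genes.

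**Figure D4:**
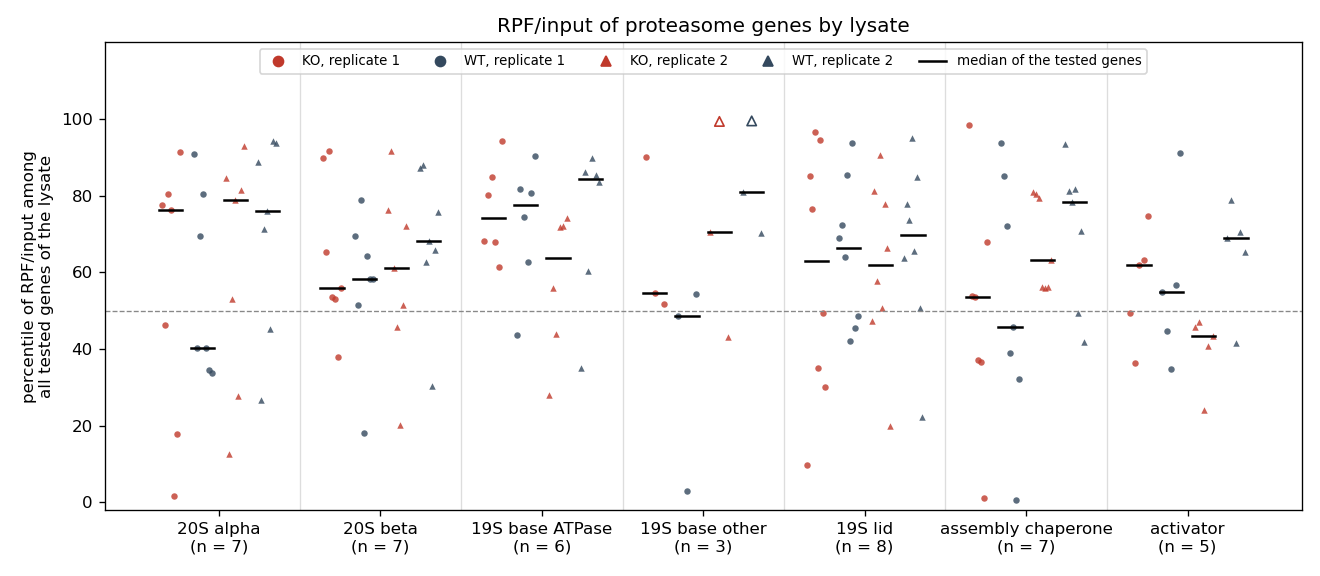
Percentile of RPF/input of each tested proteasome gene among all tested genes in the 4 lysates, KO left of WT within each replicate. The medians are 62.0 in KO and 58.2 in WT of replicate 1, and 57.7 in KO and 73.7 in WT of replicate 2.

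Among other genes of the ubiquitin-proteasome pathway, 30 of 31 listed genes were tested, and 1 passed the test on RPF. This was Zfand5, an activator of the proteasome that binds ubiquitin and the cap, whose RPF was 2.24 RPKM in KO and 78.9 RPKM in WT of replicate 1, but 163 RPKM in KO and 146 RPKM in WT of replicate 2. Its fitted log2 difference was −2.35 ± 0.60 (SE, 2 pairs; adjusted p = 0.0413, limma), yet the relative differences were −4.40 and 0.18, so the difference was seen in replicate 1 alone. The call was lost with a pseudocount of 1, without the replicate block, under both other scalings of the libraries and in each of the 4 fits that left out 1 lysate, which hold no block. None of the 30 passed on input or on RPF/input, where Zfand5 had an adjusted p of 0.0774 (limma). On RPF, 4 of the 30 were above 0 in both replicates and 12 below 0 in both, against 24.4% of all genes in each case.

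The 3 immunoproteasome genes, which replace the catalytic beta subunits of the core and are abundant in dendritic cells, differed among themselves. Psmb8 had RPF of 315 RPKM in KO and 389 RPKM in WT of replicate 1, and of 304 RPKM in KO and 603 RPKM in WT of replicate 2. Psmb10 had 224 RPKM in KO and 215 RPKM in WT of replicate 1, and 142 RPKM in KO and 332 RPKM in WT of replicate 2. In replicate 2 the log2 differences in reads of Psmb8 and Psmb10 lay at −0.99 and −1.23, where those of the activators Psme1 and Psme2 lay at −0.64 and −1.04. Psmb9 lay on the other side in replicate 2, with RPF of 214 RPKM in KO and 290 RPKM in WT of replicate 1, and of 307 RPKM in KO and 220 RPKM in WT of replicate 2. None of the 3 passed the test on RPF (adjusted p = 0.999, 0.999 and 1.000 for Psmb8, Psmb10 and Psmb9, limma).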

How the data were processed

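Per the labels and the submitters' processing notes, reads were handled with bcl2fastq, TopHat2 2.0.14 and Cuffnorm on mm10. Ribosomes were held with cycloheximide, RPF came from the 80S monosome fraction after micrococcal nuclease, and input was polyadenylated RNA. The authors deposited RPKM values in 2 tables, 1 per replicate, with 4 columns of log2 translation efficiency, which were not used. The deposited design text speaks of no replicates, but the labels give 2 samples per group. Neither says which mice gave which replicate. The paper names several pairs of WT and littermate KO mice for the profiling, without saying how they were divided between the replicates. The p-values therefore cover no more than the spread among these libraries, possibly a technical one. The columns of replicate 2 were read as the groups they name. Rows whose symbol had become a date (27 and 19) were dropped.

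Values were tested as log2(RPKM + 0.5), which understates changes of low genes, with limma 3.58.1 in R 4.3.3 (lmFit, eBayes with trend). The libraries were not centred for the main fit. The replicate, which marks the table, entered as a block, and p-values were adjusted by Benjamini-Hochberg over 10321 genes at 0.05. RPF/input was the difference of the log2 values of a lysate. Same-numbered samples deviated together (correlations of 0.78, 0.85 and 0.83 for input, RPF and RPF/input). With 1 residual degree of freedom the SE is pooled over genes of similar level. The fit was also run on simulated data in which every gene had the same spread. That run cannot show how the test behaves where spread differs between genes.

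Whole reads were recovered for replicate 2 from the RPKM steps, on coding lengths for RPF and exon lengths for input. Within 0.01, 99.7% of RPF values and 80.1% of input values were whole. For 241 genes, Psmd2 the only one among the members, RPF of replicate 2 had been divided by a length of 1 base. Members, subgroups and lists were chosen with earlier results of these data known. Any member could be named. Values of every library are given for members at least 1.5-fold apart the same way in both replicates and for those at the ends of a subgroup in mean input, RPF or RPF/input. The minimum of 100 reads was added after the data were seen. Other pseudocounts, filters, scalings, fits without the block and fits without single libraries were the alternatives.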

Additional observations from a re-analysis of the deposited data

How the results depend on the processing

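No proteasome gene passed the test for input, RPF or RPF/input under any of the 14 settings of the fit. Without the replicate block, limma called 0 genes for all 3 measures over all genes, against 0, 25 and 17 with it, and the call of Zfand5 was lost. With the block kept, limma also called 0 genes for all 3 measures after centring each library on its median and after quantile normalization. The smallest adjusted p of a member on RPF was then 0.994 and 0.999, against 0.0707 in the main fit (limma). The fitted median of the members in input, relative to all genes, was 0.016 and became −0.056, 0.085, 0.086 and −0.075 without KO replicate 1, WT replicate 1, KO replicate 2 and WT replicate 2 (with no replicate block), and −0.009 without replicate 2. With the filter at 5 RPKM, 8 of 44 members were above 0 in RPF in both replicates, against 5 of 45. The RPF/input percentile of each member was averaged over the lysates. The median of these averages over the members was 64.11 and became 58.67 without replicate 2 and 63.45 without replicate 1. The spread between subunits (SD of log2) of the core was 1.722 in input and 1.986 in RPF. It became 1.594 and 1.921 with a pseudocount of 1, and 0.474 and 1.179 without Psma8 and Psmd2, while that of the cap in RPF became 0.775 without Psmd2, against 1.94 with it. The last value was 2.711 without replicate 1 and 1.168 without replicate 2, which holds the length of 1 base of Psmd2. The fitted RPF difference of Psmd2 ran from −5.25 to 7.97 among the settings. Both ends came from fits without the block that left out 1 lysate, in which the length of 1 base enters the difference. The depth of replicate 1 is unknown.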
